A study of Homo sapiens with 6 samples.

Results

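The BCL2 family decides whether the outer membrane of the mitochondrion stays closed, and with it whether a cell survives a death signal. The 10 genes described here are the survival genes BCL2, BCL2L1 and MCL1, the pore-forming effector BAK1, and the BH3-only genes BCL2L11, BID, BIK, PMAIP1, BMF and BAD. They were taken by gene symbol out of the 30987 genes of the count table, and all 10 were found in the counts and in the FPKM. The libraries were made from HepG2, a human liver cancer cell line, transfected by Lipofectamine 2000 with an siRNA against PAIP1 (siPAIP1, 3 libraries) or with an siRNA that has no target (Ctrl, 3 libraries). All cells were harvested 48 h after transfection, and libraries of polyadenylated RNA were read from both ends. The study described the 3 libraries per group as biological replicates. A single siRNA sequence against PAIP1 was used for the sequencing, so an effect of PAIP1 loss and another effect of that siRNA cannot be told apart here.

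Proteins of the survival group (BCL-2, BCL-XL and MCL-1) hold the effectors BAK and BAX in check. BH3-only proteins carry death signals to them: some bind the effectors, and others occupy the groove of the survival proteins. Once BAK or BAX opens the outer membrane, cytochrome c is released, the apoptosome forms with APAF1, and caspases cut the cell down. Hepatocytes are known to depend on BCL-XL and MCL-1. The data are RNA levels only, and much of the control of this family acts on the proteins.

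The counts totalled between 29313211 and 34659866 per library. PAIP1 itself, a regulator of translation that binds PABP, had a CPM (counts put on a common library size with TMM factors) of 94.6, 81.5 and 90.0 in Ctrl and 27.8, 21.8 and 20.1 in siPAIP1, with a log2 fold change of -1.93 ± 0.13 (SE; adjusted p = 0.00092 by the quasi-likelihood test of edgeR). The library of siPAIP1 replicate 3 stood apart: among 9247 genes with a mean CPM of at least 10, 357 exceeded by more than 2-fold the mean of siPAIP1 replicates 1 and 2, and in no other library did more than 7 exceed the rest of its group so. Relative to the raw count total, without TMM factors, its deposited FPKM were also 10.1% lower than those of Ctrl replicate 1. By the same measure those of Ctrl replicate 2 were 3.27% lower. Changes between groups are therefore given in CPM, and FPKM is used to set the levels of different genes side by side. All 9 hepatocyte markers searched were measured, and 5 of them, ALB included, were lower in siPAIP1 by edgeR, 6 by DESeq2 and 1 by limma (AFP, HNF4A, FGB and APOB did not pass with edgeR). Over all tested genes edgeR called 6.20% lower, DESeq2 called 1007 genes lower and limma 588. Without siPAIP1 replicate 3, 7 were lower, against 12.4% of all tested genes. The summed FPKM of the endothelial markers was at most 0.30 in any library. The leukocyte list summed to between 182.7 and 288 FPKM, of which nearly all was LYZ, which this line expresses, and PTPRC was not tested. The fibroblast list rose through ACTA2, with COL1A1 not called and PDGFRB and DCN too low to be tested. Of the cholangiocyte list, KRT19 was abundant and not called, and KRT7 was lower.

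BCL2L1, which encodes BCL-XL, was by far the most abundant of the 10 genes per unit of transcript length. Its FPKM was 152.89, 151.57 and 163.36 in Ctrl and 162.83, 166.51 and 150.81 in siPAIP1. In Ctrl its mean of 155.9 was above 98.8% of the genes with an FPKM over 0. MCL1 came next, with 36.89, 35.25 and 36.35 FPKM in Ctrl and 36.33, 40.73 and 33.87 in siPAIP1. BCL2, the founding member of the family, stood last with 0.12, 0.18 and 0.15 FPKM in Ctrl and 0.12, 0.13 and 0.13 in siPAIP1. It rested on 33 to 51 fragments per library, and a count of 33 has a 95% Poisson interval of 22.7 to 46.3, which covers counting error only. Among the survival genes the order BCL2L1, MCL1, BCL2 held in every library.

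Of those among the 10 genes that promote death, BAK1 was highest, with a mean of 25.1 ± 1.72 FPKM in Ctrl (SD, n = 3). BAD, BID and BIK followed at 20.5 ± 3.88, 17.1 ± 2.38 and 15.4 ± 1.89 FPKM in Ctrl (SD, n = 3 each). In Ctrl the ranges of neighbours in this stretch of the order overlapped (BAK1 with BAD, BAD with BID, and BID with BIK). In siPAIP1 the ranges of BAK1 and BAD were apart, but BAD and BID, with means of 18.2 and 18.1, were not, and BID and BIK overlapped too. BCL2L11, BMF and PMAIP1, which encode BIM, BMF and NOXA, formed a lower tier of 3.65, 2.40 and 1.08 FPKM in Ctrl, with no overlap between neighbours. The survival genes together held 69.4% ± 1.68% of the summed FPKM of the 10 genes in Ctrl and 70.7% ± 1.11% in siPAIP1 (SD of 3 libraries), with BCL2L1 alone at 56.3% and 57.4%. BAK1 held 9.04% ± 0.278% and 8.51% ± 0.306%, and the BH3-only genes 21.6% ± 1.58% and 20.8% ± 1.15%. The survival share differed by less than the Ctrl SD and the BH3-only share by less than either SD. The BAK1 share differed by more than either SD and was lower in every siPAIP1 library than in any Ctrl library. These shares are descriptions without a test, from levels per gene that do not resolve splice forms. They also depend on which genes are listed. BAX, a death effector outside the 10 genes, had a mean of 133 FPKM in Ctrl and is not in the sum.

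**Figure D1:**
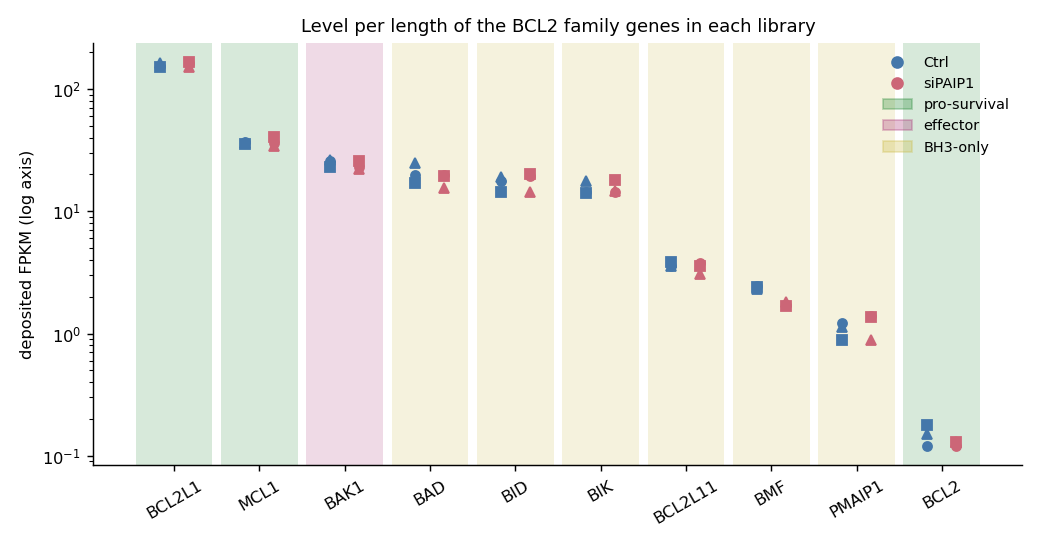
Deposited FPKM of the 10 genes in each of the 6 libraries on a log axis, ordered by the Ctrl mean; blue marks Ctrl, red siPAIP1, and the shading gives the role of the gene. BCL2L1 lies above 150 in every library and BCL2 below 0.2, and for BMF the red points lie under the blue ones.

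To see which of these genes differed after the knockdown, the groups were tested with the quasi-likelihood method of edgeR on all 15528 genes that passed the filter on low counts. All 10 members passed that filter. BMF was called lower (adjusted p under 0.05), 0 members were called higher, and 9 passed in neither direction. Over all tested genes 6.20% were called lower and 5.68% higher, so 1 of 10 is near the background. At an unadjusted p under 0.05 the tally was likewise 1 lower and 0 higher. The share of all genes at that threshold was not counted, here or for the lists below. DESeq2 and limma each called 1 lower and 0 higher. Over all genes DESeq2 called 1007 lower and 888 higher, and limma on log2(FPKM + 1) called 588 lower and 760 higher. With the fold threshold that the study used (at least 2-fold in either direction) 0 members were called, against 2.22% of all genes. In CPM, BMF alone had every siPAIP1 library below every Ctrl library, as had 17.6% of all tested genes. Of the members 0 had every siPAIP1 library above, against 19.0% of all tested genes. The median log2 fold change of the 10 genes was -0.05 and that of all tested genes 0.03, and the median size regardless of sign was 0.10 against 0.21. Of the 9 members not called, 7 had a 95% interval within 1.5-fold of Ctrl at both ends. Without siPAIP1 replicate 3 the tally was again 1 lower and 0 higher, when 12.4% of all 15732 genes tested were called lower and 11.8% higher.

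BMF encodes a BH3-only protein that is held on the cytoskeleton by a dynein light chain and binds the survival proteins. Its CPM was 13.5, 13.3 and 12.5 in Ctrl and 8.95, 8.75 and 10.4 in siPAIP1. The groups did not overlap, and siPAIP1 replicate 3 was the closest of the siPAIP1 libraries to Ctrl. The mean fell from 13.1 ± 0.547 to 9.37 ± 0.910 CPM (SD, n = 3 each), which was -0.49 on the log2 scale (SE 0.099, 95% interval -0.72 to -0.25, edgeR adjusted p = 0.022), or 0.714 of the Ctrl level. In bulk RNA, a lower level per cell and fewer cells with the transcript cannot be told apart. By deposited FPKM the libraries ran 2.46, 2.41 and 2.32 in Ctrl and 1.71, 1.69 and 1.82 in siPAIP1, and an exact two-sided permutation test gave p = 0.1, the smallest that 3 against 3 libraries allow. BMF made up 4.04% ± 0.599% of the summed FPKM of the BH3-only genes in Ctrl and 3.03% ± 0.528% in siPAIP1 (SD of 3 libraries). The call was lost without any single library other than siPAIP1 replicate 3 (edgeR adjusted p 0.0640 to 0.0994), and without that replicate the change was -0.57 (adjusted p = 0.00042, the same test). The gene spans chr15:40087890-40108892 of GRCh38 on the minus strand. Its antisense neighbour BMF-AS1 shares 8.46% of its exonic bases and averaged 0.0109 CPM in Ctrl and 0 in siPAIP1. The strand setting of the counting is not known, so BMF is uncertain to the extent of those shared bases.

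**Figure D2:**
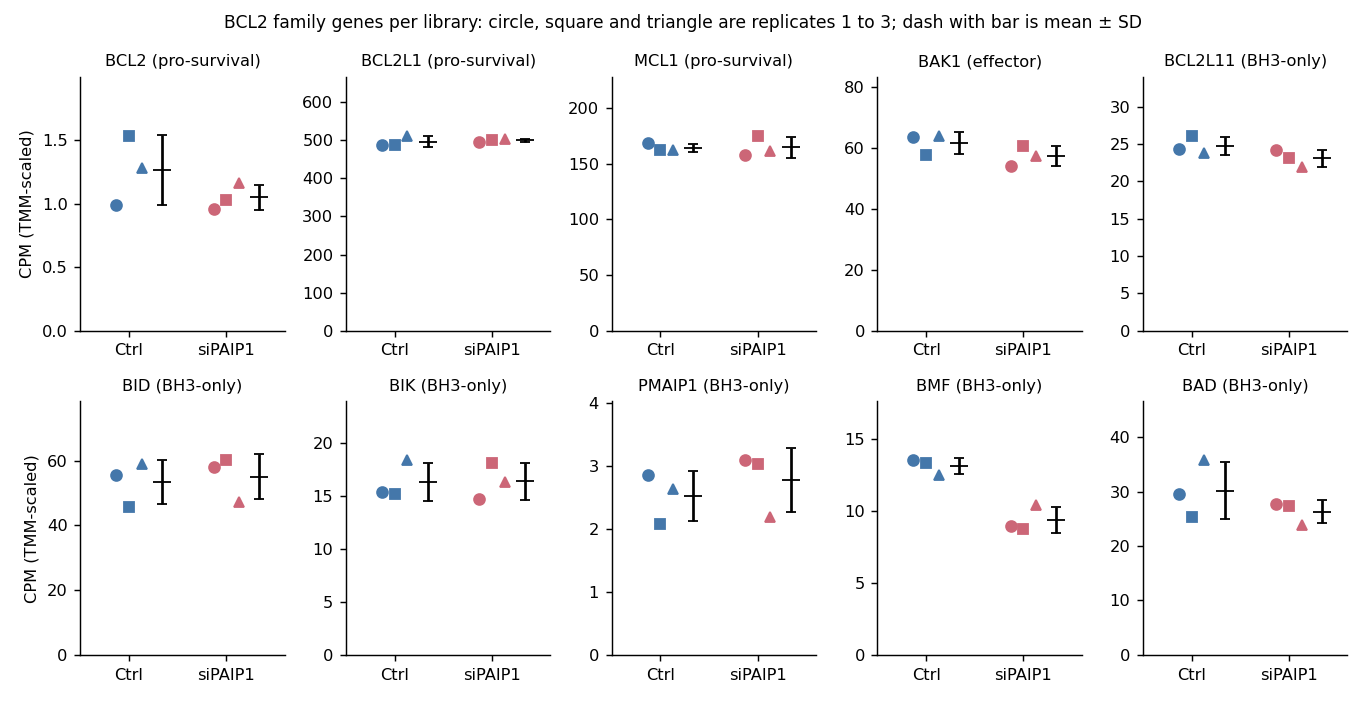
CPM of each of the 10 genes per library, Ctrl in blue and siPAIP1 in red, each axis starting at 0; symbols tell replicates 1 to 3 and the dash with bar is mean ± SD of 3 libraries. In the BMF panel all siPAIP1 libraries, at 8.75 to 10.4 CPM, lie under the lowest Ctrl library at 12.5, and in the other 9 panels the groups overlap.

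Of the 10 genes, BCL2L1 and MCL1 had the narrowest intervals. BCL2L1 had 489, 488 and 513 CPM in Ctrl and 495, 502 and 503 in siPAIP1. The groups overlapped, and the log2 fold change was 0.01 (SE 0.066, adjusted p = 0.93, the same test), with a 95% interval from 0.905 to 1.12 of the Ctrl level. MCL1, whose protein turns over quickly, had 169, 162 and 163 CPM in Ctrl and 158, 175.5 and 161 in siPAIP1. Here siPAIP1 held both the highest and the lowest library, and the interval ran from 0.893 to 1.12 of the Ctrl level (adjusted p = 0.98). BCL2 had 0.988, 1.54 and 1.28 CPM in Ctrl and 0.962, 1.03 and 1.16 in siPAIP1, with a log2 fold change of -0.27 and a wide interval of 0.570 to 1.20 of the Ctrl level (adjusted p = 0.47). At this depth the data do not tell apart the changes of BCL2 that lie inside that interval. Reads of BCL2L1 could in part belong to the antisense gene ABALON, which shares 41.3% of its exonic bases and had a mean of 0.541 CPM in Ctrl. As the strand setting of the counting is not known, that count cannot show how reads over the shared bases were assigned. The level of BCL2L1 is uncertain to that extent.

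BAK1, the effector, had 63.6, 57.7 and 64.15 CPM in Ctrl and 54.3, 60.6 and 57.4 in siPAIP1. Its log2 fold change was -0.11, with an interval from 0.819 to 1.06 of the Ctrl level (adjusted p = 0.40, the same test). BAX, the other main effector, was not among the 10 genes and went from 210 ± 10.0 to 206 ± 11.6 CPM (SD, n = 3 per group, adjusted p = 0.84). Per unit of length BAX exceeded BAK1, at 133 against 25.1 FPKM in Ctrl. The related gene BOK was at 33.1 FPKM in Ctrl, with a log2 fold change of 0.17 (adjusted p = 0.16). None of these effectors passed the test, and for BAK1 and BAX the groups overlapped.

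Among the other BH3-only genes, BCL2L11 encodes BIM, which can bind every survival protein. It had 24.4, 26.2 and 23.8 CPM in Ctrl and 24.2, 23.1 and 21.9 in siPAIP1 (log2 fold change -0.10, 0.821 to 1.06 of the Ctrl level, adjusted p = 0.43). Its antisense neighbour MIR4435-2HG, which shares 10.8% of its exonic bases, was more abundant (93.3 CPM in Ctrl) and was called lower (log2 fold change -0.52, adjusted p = 0.014, the same test). The sources used here do not say whether counting used strand, so BCL2L11 is uncertain to that extent. BIK, a BH3-only protein of the endoplasmic reticulum, had 15.4, 15.2 and 18.4 CPM in Ctrl and 14.7, 18.1 and 16.3 in siPAIP1. Its log2 fold change was 0.0029, with an interval of 0.833 to 1.21 of the Ctrl level (adjusted p = 0.99).

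For BID, BAD and PMAIP1 the group means differed by less than the SD of the Ctrl libraries. BID, which a caspase cleaves to link death receptors to the mitochondrion, had 55.5, 45.7 and 58.9 CPM in Ctrl and 58.0, 60.2 and 47.2 in siPAIP1. The lowest values were those of Ctrl replicate 2 and siPAIP1 replicate 3. PMAIP1, which encodes the p53-responsive NOXA, had its lowest values in the same libraries, with 2.845, 2.08 and 2.625 CPM in Ctrl and 3.09, 3.03 and 2.19 in siPAIP1. BAD, which phosphorylation by growth-factor signals keeps inactive, had 29.5, 25.25 and 35.8 CPM in Ctrl and 27.7, 27.3 and 23.8 in siPAIP1, again lowest within each group in those libraries. On the log2 scale siPAIP1 replicate 3 lay at -0.32 for BID, -0.48 for PMAIP1 and -0.21 for BAD relative to the mean of the other siPAIP1 libraries. The part of that library in these values was not tested beyond leaving it out, which gave log2 fold changes of 0.14 (BID), 0.28 (PMAIP1) and -0.14 (BAD), with edgeR adjusted p of 0.26, 0.28 and 0.40. With all libraries the values were 0.05, 0.14 and -0.20, with adjusted p of 0.83, 0.67 and 0.36 by the same test. The intervals were 0.840 to 1.27, 0.799 to 1.52 and 0.700 to 1.08 of the Ctrl level. PMAIP1 rested on 66 to 106 fragments per library. BAD shares 23.7% of its exonic bases with GPR137 on the other strand, which had 22.1 CPM in Ctrl and 22.6 in siPAIP1. As for BCL2L11, the level of BAD and its place in the order are uncertain to that extent.

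**Figure D3:**
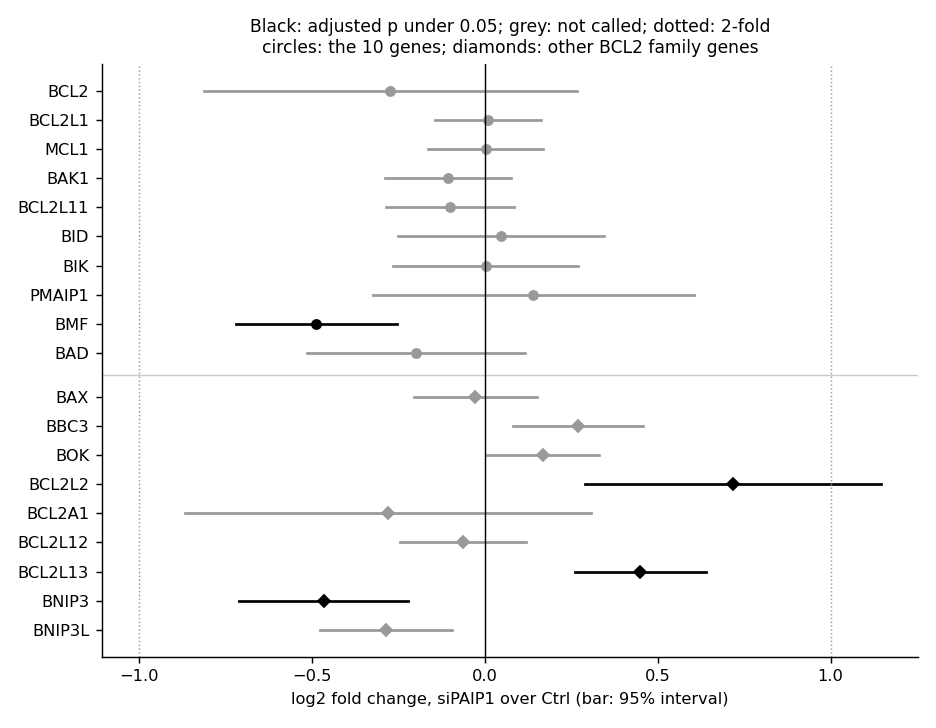
Log2 fold change of siPAIP1 over Ctrl with its 95% interval (not adjusted for multiple tests) for the 10 genes (circles, top) and for the other BCL2 family genes tested (diamonds, bottom). Black marks an adjusted p under 0.05, which BMF, BCL2L2, BCL2L13 and BNIP3 reached, and every point estimate lies inside the dotted 2-fold lines.

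Of 13 further BCL2 family genes 9 were tested, of which 2 were called higher, 1 lower and 6 in neither direction (median log2 fold change -0.03), against 5.68% higher and 6.20% lower over all tested genes. With siPAIP1 replicate 3 left out, the test called 3 of them higher and 2 lower, against 11.8% and 12.4% of all genes. These backgrounds apply to each pathway list that follows. The survival gene BCL2L2, which encodes BCL-w, had 36.4, 40.8 and 37.7 CPM in Ctrl and 52.6, 52.5 and 83.9 in siPAIP1 (0.72 on the log2 scale, SE 0.18, edgeR adjusted p = 0.046). Every siPAIP1 library was above Ctrl and replicate 3 was far above the others; without it the change was 0.45 (adjusted p = 0.00020, the same test). The readthrough gene BCL2L2-PABPN1 shares 16.8% of the exonic bases of BCL2L2 on the same strand and had 191 CPM in Ctrl and 197 in siPAIP1, so the split of reads between them is uncertain. BCL2L13, a mitochondrial family member that also serves as a receptor in mitophagy, rose from 17.1 ± 1.05 to 23.4 ± 0.867 CPM (0.45, SE 0.081, adjusted p = 0.014, the same test). BNIP3, a hypoxia-induced mitophagy receptor, fell from 156 ± 13.4 to 113 ± 12.2 CPM (-0.47, SE 0.10, adjusted p = 0.031, the same test). BBC3, which encodes PUMA, had a log2 fold change of 0.27 (adjusted p = 0.073) and BNIP3L -0.29 (adjusted p = 0.064), and in both the groups did not overlap (these genes were singled out after their values were seen). BCL2L12, the next most abundant after BAX, BNIP3 and BOK at 21.4 FPKM in Ctrl, had -0.06 (adjusted p = 0.63). HRK, BCL2L10, BCL2L14 and BCL2L15 were too low to be tested. Leaving out 1 library ended the call of BCL2L2 without Ctrl 1, 2 or 3 or siPAIP1 2 (adjusted p 0.0574 to 0.175), of BCL2L13 without any library but siPAIP1 3 (0.0507 to 0.0681), and of BNIP3 without Ctrl 1, Ctrl 3 or siPAIP1 2 (0.0887 to 0.131).

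Downstream of the membrane step, CASP8, which death receptors activate and which cleaves BID, had 25.3, 24.8 and 26.2 CPM in Ctrl and 32.65, 36.2 and 43.96 in siPAIP1. Every siPAIP1 library was above Ctrl, and replicate 3 was the highest. The mean rose from 25.4 ± 0.725 to 37.6 ± 5.78 CPM (SD, n = 3 each), or by 0.56 on the log2 scale (SE 0.12, edgeR adjusted p = 0.022). Of 10 genes of the apoptosome and caspases, 1 was called higher (CASP8), 0 lower and 9 in neither direction (median 0.13), against 5.68% higher and 6.20% lower over all tested genes. Without siPAIP1 replicate 3 the list had 4 of 10 higher and 1 lower, when calls over all genes rose to 11.8% and 12.4% too. No test was run on these counts. CYCS, which encodes cytochrome c, had 0.31 (adjusted p = 0.064), DFFA, an inhibitor of the DNA-cutting nuclease, 0.29 (adjusted p = 0.094), and DFFB, that nuclease, -0.24 (adjusted p = 0.14). CASP8 was not called without Ctrl 1, 2 or 3 or siPAIP1 2 (adjusted p 0.0625 to 0.104). Of 9 caspase inhibitors and released mitochondrial proteins 0 were called (edgeR; unadjusted p under 0.05 in 1 that was higher and 0 lower; 0 by DESeq2 and by limma; 2 higher without siPAIP1 replicate 3), and the median was 0.10. Those with the lowest adjusted p were HTRA2 (log2 fold change 0.20, adjusted p = 0.14), BIRC5, which encodes survivin (0.21, adjusted p = 0.18), BIRC6 (0.10, adjusted p = 0.57) and XIAP (0.31, adjusted p = 0.37), whose CPM was 29.2, 31.5 and 52.1 in siPAIP1 against 29.1 to 32.5 in Ctrl.

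VDAC2, which encodes the channel of the outer membrane that holds BAK, changed most in size among the pathway genes described here. It had 328, 297 and 321 CPM in Ctrl and 172, 160 and 132 in siPAIP1, with the groups far apart. The mean went from 315 ± 16.2 to 154.5 ± 20.6 CPM (SD, n = 3 each), or by -1.03 on the log2 scale (SE 0.11, edgeR adjusted p = 0.0030), and without any 1 library it was still called (-1.12 to -0.93, adjusted p at most 0.0311). Next to it, among 12 binders of BH3-only proteins and of BAK, YWHAG was called higher (0.33, SE 0.064, adjusted p = 0.019, the same test). It encodes an adaptor of the family that binds phosphorylated BAD. The other 10 passed in neither direction (list median 0.10; 4 higher and 2 lower without siPAIP1 replicate 3), including YWHAH (0.25, adjusted p = 0.074) and the dynein light chain DYNLL2, which binds BMF (0.29, adjusted p = 0.11). YWHAG was not called without any library other than siPAIP1 3 (adjusted p 0.0551 to 0.107). Of 10 transcription factors that act on BH3-only genes 0 were called (edgeR; unadjusted p under 0.05 in 0 that were higher and 1 lower; 0 by DESeq2 and by limma; median 0.07). FOXO1 had -0.21 (adjusted p = 0.17), E2F1 0.14 (adjusted p = 0.22), JUN 0.28 (adjusted p = 0.23) and RUNX3 0.28 (adjusted p = 0.31). Of 5 tested genes that control turnover of the MCL-1 protein 0 were called as well (edgeR; unadjusted p under 0.05 in 0 that were higher and 1 lower; 0 by DESeq2 and by limma; median -0.10). The lowest adjusted p there were those of BTRC (-0.18, adjusted p = 0.17), USP9X (-0.13, adjusted p = 0.30), HUWE1 (0.74, adjusted p = 0.32) and MARCH5 (-0.10, adjusted p = 0.41). HUWE1 had 106, 105 and 357 CPM in siPAIP1, so its mean rested on replicate 3. Without siPAIP1 replicate 3, 0 of either list were called.

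**Figure D4:**
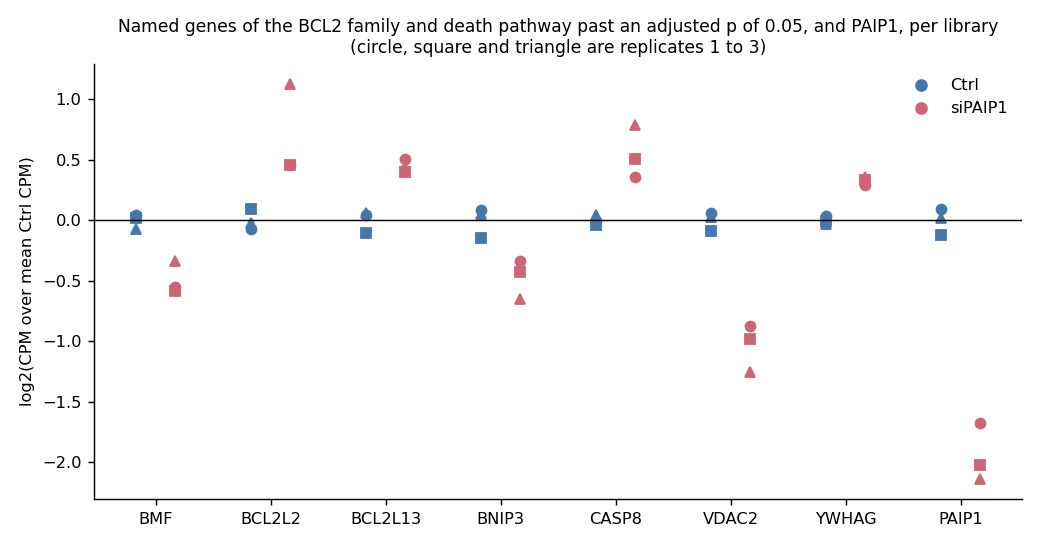
Log2 of the CPM of each library over the mean Ctrl CPM for BMF, the other family and pathway genes named here that passed an adjusted p of 0.05, and PAIP1; blue marks Ctrl, red siPAIP1, and symbols tell the replicates. VDAC2 lies near -1 in siPAIP1, and the triangle of siPAIP1 replicate 3 stands above the others for BCL2L2.

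The siRNA can bind other transcripts through the seed of its antisense strand, bases 2 to 8, so the transcripts were searched for the matching 7 bases. The antisense strands as the study lists them, with the seed in capitals, were these.
si-3 (PAIP1): uAUCAUCCaaguauggauctt
siNC (Ctrl): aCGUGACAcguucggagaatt
Of the 10 genes 1 had the si-3 site GGATGAT in the 3′ UTR of its canonical transcript (BCL2), 1 had it in the coding sequence (BMF), and 8 had it in neither. BMF was called lower and BCL2 was not called. The site was present in 8.46% of 3′ UTRs and 15.6% of coding sequences over the 12630 transcripts of tested genes. VDAC2 and BNIP3, both lower in siPAIP1, had it in the 3′ UTR, and CASP8, which was higher, in the coding sequence. BCL2L2, BCL2L13 and YWHAG, also called higher, had it in neither. Outside the 10 genes, sites were looked up by gene only for PAIP1 and these called genes, not for uncalled genes of the lists. The windows around the site, in capitals, are shown for the target and for those genes whose site lies in a single exon.
PAIP1, coding sequence across a splice junction, chromosome 5, minus strand: gatccatacttGGATGATattgatgatga
VDAC2, 3′ UTR, chr10:75231088-75231116, plus strand: atcaaaacaaaGGATGATctcaacaagag
BNIP3, 3′ UTR, chr10:131967861-131967889, minus strand: gtgatcaccctGGATGATcagttttctgc
BCL2, 3′ UTR, chr18:63127558-63127586, minus strand: gcctcctccagGGATGATcaacagggcag
BMF, coding sequence, chr15:40106037-40106065, minus strand: gaggagctggaGGATGATgtgttccaacc
Sequences and positions are from GENCODE release 44 on GRCh38, the build the authors aligned to. The site of the control siRNA, TGTCACG, was in 0 of the 10 genes (2.95% of all 3′ UTRs and 3.65% of coding sequences). Among tested genes with the si-3 site in the 3′ UTR, 11.3% of 1068 were called lower (median log2 fold change -0.03), against 6.70% of 11562 without it (median 0.03). No test was run on these shares, and the sets were not matched for UTR length. Calls were not counted by site in the coding sequence, where BMF has it. A matching stretch of letters is a description, and whether the siRNA acted on any of these transcripts was not tested.

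The profile of BMF over the 6 libraries was matched most closely by MTMR4, whose log2 ratios to the Ctrl mean differed from those of BMF by 0.0325 on average, then by AOC2 (0.0466) and DPYSL2 (0.0539), among 15523 genes. MTMR4 had a log2 fold change of -0.49 (adjusted p = 0.034), AOC2 -0.42 (adjusted p = 0.086) and DPYSL2 -0.46 (edgeR adjusted p = 0.023). BAD, the member with the next lowest adjusted p, was matched most closely by TARBP2 (0.0430) and ASNA1 (0.0466) among the genes reported here, which both had a log2 fold change of -0.20. These matches are descriptions over 6 libraries.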

How the data were processed

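RNA-seq of 6 HepG2 libraries (3 siPAIP1, 3 Ctrl) was used. The counts deposited by the authors are raw numbers of uniquely mapped fragments per gene, after trimming and alignment to GRCh38 with TopHat2. The FPKM deposited by the authors are scaled to transcript length and library size and rounded to 2 decimals. The counting tool, its strand setting, the annotation release and the divisor of the FPKM could not be found in the sources at hand (not given in the sources used here). Groups were taken from the sample titles.

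In R 4.3.3, counts were scaled by TMM and filtered by filterByExpr (15528 of 30987 genes), and siPAIP1 was compared with Ctrl by edgeR 4.0.16 (glmQLFit, glmQLFTest, 1 term for group), and p-values were adjusted over all tested genes by Benjamini-Hochberg. Standard errors came from the fold change and its F statistic. The code was tested on simulated data. Alternatives used DESeq2 1.42.0, limma 3.58.1 on log2(FPKM + 1) and log2(FPKM + 0.1), other scalings and filters, a replicate block, a fold threshold of 2, and leaving out each library. Figures used Python 3.11.15 and matplotlib 3.10.9. The 10 genes and the pathway and marker lists were chosen with earlier results of these data known. Named genes are the 10 genes, PAIP1, the listed family genes that passed or were most abundant, up to 4 genes per list by lowest adjusted p, ALB, AFP and HNF4A with the markers of other cell types, and the closest profiles (up to 3) for BMF and BAD. The edgeR p-values set the difference between groups against the spread between these libraries within a group. No 2 libraries of a group agreed within sampling noise. Some genes that this rule or a list would include are not reported here.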

Additional observations from a re-analysis of the deposited data

How the results depend on the processing

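BMF stayed lower in every alternative run. Its call ended with the replicate block (-0.49, edgeR adjusted p = 0.071), and leaving out 1 library gave -0.57 to -0.44. The members called lower numbered 0 with the replicate block, 0 with the fold threshold of 2, and 0 to 1 when 1 library was left out, and 0 members were called higher throughout. The sources used here state no pairing of same-numbered libraries. Their deviations from the group mean correlated at 0.26, -0.28 and -0.15. Deviations within a group sum to 0, so these correlations depend on one another. Whether libraries were paired was not tested further. The block lowered the calls over all genes to 366 higher and 459 lower from 882 and 963. It also ended the calls of BCL2L2, BNIP3 and YWHAG. With the fold threshold there were 173 higher and 171 lower, limma on FPKM gave 588 and 607 lower (pseudocounts 1 and 0.1), and leaving out 1 library gave 187 to 1857 higher and 269 to 1952 lower, the most without siPAIP1 replicate 3.

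The cause of these changes was not tested, and the fits that left out 1 library also had fewer samples. The sign of the smallest changes depended on scaling. BCL2L1 moved to -0.0046 with RLE factors, with no filter and by DESeq2 (-0.0089 to 0.028 leaving out 1 library). MCL1 moved to -0.012 with RLE factors and by DESeq2, -0.011 with no filter and -0.0029 with upper-quartile factors (-0.046 to 0.028 leaving out 1 library). BIK moved to -0.012 with RLE factors, with no filter and by DESeq2, and -0.0028 with upper-quartile factors (-0.079 to 0.090 leaving out 1 library). BID ranged from -0.060 to 0.14 leaving out 1 library. In 126 pairs of a setting and one of the 9 members other than BMF, 0 passed (smallest adjusted p = 0.18). In CPM, not corrected for length, the survival genes held 76.7% of the members' sum in Ctrl and 77.8% in siPAIP1. BNIP3 was not called by limma (adjusted p 0.081 and 0.089) nor YWHAG with no filter (0.069). Low counts limit BCL2 and PMAIP1.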
